A study of Homo sapiens with 9 samples.

Results

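The 42 genes examined encode glycoproteins and proteoglycans of the extracellular matrix that are neither collagens nor laminins, together with the hyaluronan receptor CD44. They were taken by symbol from a written list, and all 42 were found among the 26475 symbols of the count table. Matrix glycoproteins such as fibronectin assemble into fibrils that cells hold through integrins, and matricellular proteins such as the thrombospondins and tenascins tune that hold without being main structural parts. Proteoglycans are core proteins carrying long sulfated sugar chains, which bind growth factors and water, and the syndecans and glypicans among them sit on the cell surface. In melanoma, as in other solid tumors, this network is known for its part in adhesion, migration and signalling from the cell surface. By role, the list held 12 adhesive and matricellular glycoproteins, 13 genes of elastic fibres and microfibrils, 4 of the basement membrane, 4 secreted proteoglycans and 9 cell-surface proteoglycans and receptors.

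A375 cells, an established line from a human melanoma that carries mutant BRAF, were kept for 24 h with the vehicle DMSO or with TP-472 at 5 µM or 10 µM, and RNA from 3 samples per group, given as biological replicates, was sequenced. TP-472 is a small molecule that inhibits the bromodomain proteins BRD9 and BRD7, which read acetylated histones. The groups share 1 cell line and 1 time point, and the p-values measure the spread between these 9 libraries. Values below are CPM (counts scaled to a library of 1000000) on library sizes scaled by TMM, and they come from bulk RNA, in which fewer cells of a kind and less RNA per cell cannot be told apart. A gene was called lower or higher at a fold change of at least 1.5 with a Benjamini-Hochberg adjusted p under 0.05 over the 16417 genes that edgeR tested.

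The 9 libraries held 42483091 to 51298130 expected counts, of which genes of ribosomal RNA took 8.204% to 19.9%. One library stood apart: 10 µM replicate 1 deviated from the mean of its group with an SD of 0.637 on the log2 scale over genes, against 0.251 to 0.485 in the others. A fit on transcript length and GC content took up 10.3% of the variance of that deviation, against 4.48% and 5.16% in the other two 10 µM libraries, so fold changes at 10 µM are also given without it for some of the members described below. Of 8 melanocyte-lineage markers, SOX10 was at 417 CPM in DMSO and 391 CPM at 10 µM and MITF at 31.9 and 29.1 CPM, while the pigment-cell enzyme TYR was at 0 in all 9 libraries, DCT did not pass 0.00641 CPM in any group mean, and S100A1 fell at 10 µM (log2 fold change -1.56 ± 0.40, adjusted p = 0.0129). Together the 8 summed to 448 to 468 CPM with DMSO and 400 to 448 CPM with 10 µM, most of it SOX10. PMEL, MLANA and S100B enter this sum and are not given singly. Of the leukocyte markers, CD3E was at 0 in every library, PTPRC averaged 0.0280, 0.0489 and 0.211 CPM and CD14 0.242, 0.203 and 0.658 CPM by rising dose, CD14 was not called at 10 µM (1.44 ± 0.64, adjusted p = 0.114), and 3 endothelial markers summed to at most 3.70 CPM in any library. The 3 epithelial markers summed to 6.42 to 10.6 CPM over all libraries. The 3 fibroblast markers summed to between 24.9 and 27.2 CPM with DMSO, between 13.7 and 15.9 CPM with 5 µM and between 6.84 and 11.2 CPM with 10 µM, with PDGFRB and PDGFRA called lower at 10 µM and THY1 at or near 0, and their part in the results below was not tested.

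Calls among the matrix glycoprotein and proteoglycan genes were nearly all towards lower levels in TP-472, and they covered 9 of 39 tested genes at 5 µM and 19 of 39 at 10 µM. Of the 39 genes that passed the filter on low counts, 9 were called lower and 0 higher at 5 µM, where 2.72% of all tested genes were called lower and 2.14% higher. At an adjusted p under 0.05 without the limit on fold change, 11 were lower and 1 higher at 5 µM, against 5.81% and 4.4%. At 10 µM, 18 were called lower and 1 higher, against 10.5% and 8.57% of all tested genes. Between the doses, 9 were lower at 10 µM than at 5 µM and 1 was higher, against 2.59% and 1.42%. The median log2 fold change of the 39 genes was -0.17 at 5 µM and -0.61 at 10 µM, beside 0.0054 and 0.011 over all tested genes, and -0.48 between the doses, beside 0.0012. Both comparisons share the DMSO libraries. A set of 8 genes (FN1, EMILIN1, FBLN1, EFEMP1, EFEMP2, NID1, BGN and SDC3) fell at both doses, SPP1 was called lower at 5 µM alone, and the other 10 calls were made at 10 µM alone. GPC1 was the 1 member called higher against DMSO. The plot of fold changes shows both doses for every tested gene.

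**Figure D1:**
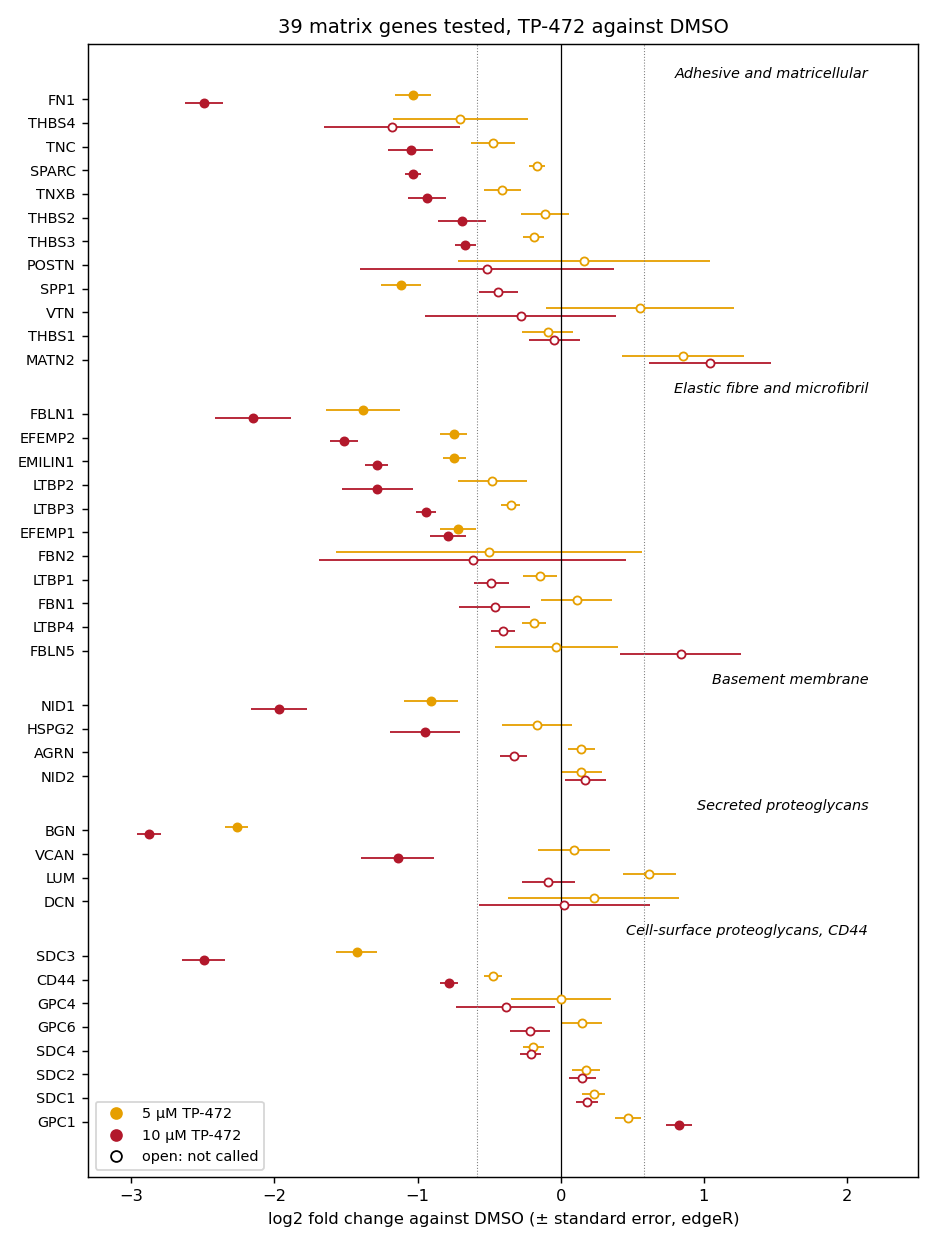
Log2 fold change against DMSO (horizontal axis) of the 39 tested matrix genes at 5 µM and 10 µM TP-472, grouped by role, with bars of 1 standard error, open points for genes not called and dotted lines at the fold limit. BGN has the lowest value at both doses (-2.26 and -2.88), and GPC1 (0.83 at 10 µM) is the 1 gene called higher.

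In the vehicle group a few genes made up most of the matrix counts. In DMSO, 13 of the 42 genes had a mean of at least 100 CPM, 16 lay between 5 and 100 CPM, 4 between 1 and 5 CPM and 9 under 1 CPM. Levels per kilobase use all annotated exons of a gene merged, which can far exceed its longest transcript. For LTBP3 these were 10298 against 4443 bases, for CD44 10004 against 5732 and for FN1 17315 against 9171. The order below rests on merged exons and was not tried with another length. Per kilobase of exon, SPARC stood highest at 538 CPM per kb, with its 3 DMSO libraries between 528 and 547. CD44 (116 CPM per kb) and SDC4 (113) followed, and their ranges over libraries overlapped, so their order is not resolved. THBS1 (79.6), TNC (67.0), LTBP3 (62.1) and AGRN (54.9) came next in an order that, on this length, held in all 3 DMSO libraries. FN1 (45.2) and NID1 (44.4) overlapped again, and BGN (35.9) and EMILIN1 (31.9) completed the genes at the top of this order. At 10 µM the order had changed: SDC4 was in place 2 at 97.7 CPM per kb, FN1 stood in place 13 at 8.02 and BGN in place 19 at 4.88, while SPARC was still highest at 263.

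Added together, the 42 genes took between 0.877% and 0.900% of a DMSO library, between 0.689% and 0.752% of a 5 µM library and between 0.456% and 0.535% of a 10 µM library. Their summed level was 8892 to 8976 CPM in the DMSO libraries (mean 8924 ± 45, SD, n = 3) and 7185 to 7311 CPM at 5 µM (7234 ± 68.0). At 10 µM the libraries held 4484, 5199 and 5207 CPM (4963 ± 415), and the lowest of these is replicate 1. The groups did not overlap, and the mean stood at 81.1% of DMSO at 5 µM and 55.6% at 10 µM. SPARC alone made 29.1% of the sum in DMSO, and SPARC, CD44, FN1, THBS1, TNC, LTBP3 and AGRN made 80.1%, 80.8% and 78.8% of it in DMSO, 5 µM and 10 µM. By role, adhesive and matricellular genes summed to between 4813 and 4866 CPM per DMSO library and between 2192 and 2645 CPM per 10 µM library, and cell-surface genes to 1742 to 1769 CPM and 1178 to 1197 CPM.

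**Figure D2:**
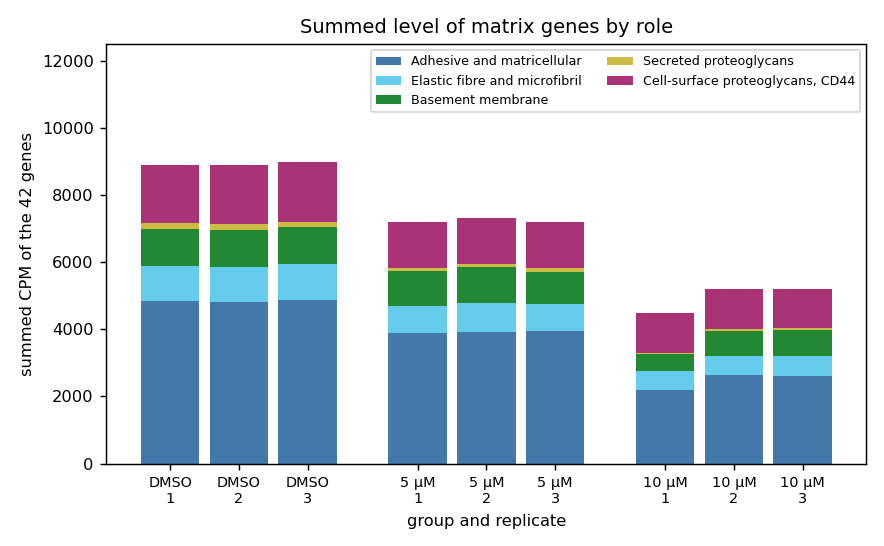
Summed level in CPM (vertical axis, from 0) of the 42 matrix genes in each of the 9 libraries, split by role. DMSO libraries reach 8892 to 8976 CPM and 10 µM libraries 4484 to 5207 CPM.

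The promoters of 4 genes are printed as examples because their genes carry the clearest changes: BGN, SDC3 and FN1, the 3 genes with the lowest fold changes at 10 µM, and GPC1, which rose. Each is the RefSeq sequence of the 250 bases before the start that RefSeq gives the gene on GRCh38.p14, read 5' to 3' on the gene's strand, with every GC box (GGGCGG, or CCGCCC on the other strand, the motif bound by SP1-family factors) in capitals. The BGN window is chrX:153494730-153494979, plus strand, the SDC3 window chr1:30908759-30909008, minus strand, the FN1 window chr2:215436069-215436318, minus strand and the GPC1 window chr2:240435413-240435662, plus strand. RefSeq and GENCODE starts can differ, and the FN1, BGN and SDC3 windows reach into the gene as GENCODE draws it.

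BGN: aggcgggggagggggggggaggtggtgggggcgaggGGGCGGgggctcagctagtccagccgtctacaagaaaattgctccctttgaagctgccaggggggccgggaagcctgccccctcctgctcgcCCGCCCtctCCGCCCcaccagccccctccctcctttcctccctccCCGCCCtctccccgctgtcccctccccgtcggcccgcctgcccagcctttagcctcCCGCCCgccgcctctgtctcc
SDC3: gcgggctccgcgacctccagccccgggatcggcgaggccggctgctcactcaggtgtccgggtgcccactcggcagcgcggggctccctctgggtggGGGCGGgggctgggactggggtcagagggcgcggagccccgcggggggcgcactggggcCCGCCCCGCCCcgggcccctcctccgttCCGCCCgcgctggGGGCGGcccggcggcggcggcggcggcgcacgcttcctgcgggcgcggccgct
FN1: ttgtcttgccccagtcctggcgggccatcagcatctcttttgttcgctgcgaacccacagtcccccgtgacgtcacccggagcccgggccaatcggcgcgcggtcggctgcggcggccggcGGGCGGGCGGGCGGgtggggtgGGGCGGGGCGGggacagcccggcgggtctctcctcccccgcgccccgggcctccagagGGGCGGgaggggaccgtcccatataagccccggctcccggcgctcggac
GPC1: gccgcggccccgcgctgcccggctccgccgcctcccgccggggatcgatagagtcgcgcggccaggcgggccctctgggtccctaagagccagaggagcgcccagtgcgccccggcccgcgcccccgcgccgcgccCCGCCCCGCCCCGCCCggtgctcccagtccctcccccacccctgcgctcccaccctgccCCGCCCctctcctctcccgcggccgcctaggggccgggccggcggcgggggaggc

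The windows held 5 matches in BGN, 5 in SDC3, 6 in FN1 and 4 in GPC1, overlapping matches counted separately, and their GC content was 74.0%, 83.6%, 76.4% and 84.0%. A window was found for 33 of the 42 genes, and 24 of them (72.7%) held at least 1 GC box, beside 12625 of 27305 symbols (46.2%) with a window of the same length. Those symbols include genes not tested here, so the shares do not compare like with like. The median GC content of the windows was 68.8% for the 33 genes and 58.0% for all. Among genes with a window, 13 of 16 called lower at 10 µM and 9 of 15 not called held the motif, so the printed motif occurs in genes that fell, in GPC1 and in genes that were not called. A match describes the letters of the window and not binding of a factor.

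Among the 12 adhesive and matricellular glycoproteins, 2 were called lower at 5 µM and 6 at 10 µM, and 0 were called higher against DMSO at either dose. Over all tested genes, 2.72% and 10.5% were lower and 2.14% and 8.57% higher at 5 µM and 10 µM. FN1, on chromosome 2 of GRCh38 (chr2:215360440-215436172), encodes fibronectin, a main adhesive protein of the matrix that integrins bind. Its level was 769.7, 788 and 789 CPM in the DMSO libraries, 370.3, 390.3 and 388 CPM under 5 µM and 106, 156 and 154 CPM under 10 µM, so the 3 groups were fully separated and ordered by dose. FN1 fell at both doses, with log2 fold changes (± SE) of -1.03 ± 0.13, adjusted p = 0.000957, for 5 µM and -2.49 ± 0.13, adjusted p = 1.19e-06, for 10 µM, a 5.63-fold difference at the higher dose. The step from 5 µM to 10 µM was itself called (-1.46 ± 0.13, adjusted p = 0.000186), and the change at 10 µM was -2.34 without 10 µM replicate 1. SPARC, a collagen-binding matricellular protein also called osteonectin, was the most abundant member per kilobase in every group. It was at 2644, 2549.6 and 2601 CPM in the DMSO libraries, 2289, 2319 and 2339.6 CPM under 5 µM and 1335, 1248 and 1228 CPM under 10 µM. At 5 µM the libraries lay just below DMSO and the change was not called (-0.17 ± 0.06, adjusted p = 0.0963), whereas at 10 µM they lay far below both other groups (-1.03 ± 0.06, adjusted p = 1.44e-06). The difference between the doses was called too (-0.87 ± 0.06, adjusted p = 4.45e-05). The log2 fold change at 10 µM was -1.07 without replicate 1.

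TNC encodes tenascin-C, a large matricellular protein of remodelling tissue and tumors. Its levels were 642, 644 and 650.0 CPM in the DMSO libraries, 469, 467 and 459.8 CPM under 5 µM and 221, 358 and 357 CPM under 10 µM, with 10 µM replicate 1 well below the other two libraries of its group. TNC was called lower at 10 µM (-1.05 ± 0.15, adjusted p = 0.000679, and -0.85 without that replicate), and at 5 µM its value was -0.47 ± 0.15, adjusted p = 0.0846. The dose difference of -0.58 ± 0.15 fell short of the fold limit, and it was called without 10 µM replicate 2 (adjusted p = 0.0368) or replicate 3 (adjusted p = 0.0402), by limma-voom (adjusted p = 0.0391) and with no filter (adjusted p = 0.0366). TNXB, which encodes the related tenascin-X, was at 10.8, 12.8 and 12.2 CPM in the DMSO libraries, 8.50, 10.1 and 8.48 CPM under 5 µM and 5.54, 6.61 and 6.62 CPM under 10 µM. It was lower at 10 µM (-0.94 ± 0.13, adjusted p = 0.000487), a call that was lost on fold size when a trend with length and GC content was removed, and its near-identical pseudogene TNXA received 0 to 22.5 counts per library, so the split of reads between them is uncertain. At 5 µM TNXB stood at -0.41 ± 0.13, adjusted p = 0.0769, with all 3 libraries below the lowest of DMSO.

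The 4 thrombospondins, calcium-binding glycoproteins that act on adhesion and vessel growth, differed in their calls, although differences between them were not tested across genes. THBS1, the most abundant of them per kilobase, was at 711, 740.2 and 736 CPM in the DMSO libraries, 679.8, 680.0 and 693 CPM under 5 µM and 467, 826 and 827 CPM under 10 µM, and its 10 µM libraries lay on both sides of DMSO. Its log2 fold change at 10 µM was -0.05 ± 0.18, adjusted p = 0.876, and turned to 0.18 without 10 µM replicate 1 (adjusted p = 0.000116), which was under the fold limit. THBS3 was at 50.9, 48.9 and 49.8 CPM in the DMSO libraries, 42.2, 43.5 and 45.5 CPM under 5 µM and 32.7, 31.4 and 30.1 CPM under 10 µM and was called lower at 10 µM (-0.67 ± 0.07, adjusted p = 9.71e-05). All 3 groups of THBS3 were separated, but the change at 5 µM was not called (-0.19 ± 0.07, adjusted p = 0.134), and 25.4% of its exons overlap genes on the opposite strand (MTX1 among them), whose reads cannot be told apart if strand was not used. THBS2 was low, at 4.97, 5.66 and 6.05 CPM in the DMSO libraries, 6.09, 4.47 and 4.91 CPM under 5 µM and 3.78, 3.31 and 3.24 CPM under 10 µM. Its fall at 10 µM (-0.69 ± 0.17, adjusted p = 0.0108) was no longer called without DMSO replicate 3 (adjusted p = 0.0517) or with the length and GC trend removed (adjusted p = 0.0533), and its 5 µM libraries overlapped DMSO. THBS2 was called lower at 10 µM than at 5 µM without 10 µM replicate 1 (adjusted p = 0.0167), and not with it (adjusted p = 0.0642). THBS4 averaged 1.41 CPM in DMSO and 0.619 CPM at 10 µM and was not called (-1.18 ± 0.48, adjusted p = 0.0835), though it was called lower with all libraries by DESeq2 (adjusted p = 0.0434), limma-voom (adjusted p = 0.0413) and the likelihood ratio test (adjusted p = 0.0477), and by the quasi-likelihood test without 10 µM replicate 2 (adjusted p = 0.0164).

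SPP1, which encodes osteopontin, a secreted phosphoprotein that binds integrins and CD44, was the 1 member called lower at 5 µM alone. It was at 19.6, 20.3 and 20.0 CPM in the DMSO libraries, 11.1, 8.79 and 7.78 CPM under 5 µM and 16.8, 13.5 and 13.9 CPM under 10 µM, so that the 5 µM libraries were the lowest and the 10 µM libraries lay between them and DMSO. SPP1 was called lower at 5 µM (-1.12 ± 0.14, adjusted p = 0.00101) but not at 10 µM, where the fold limit was not met (-0.44 ± 0.14, adjusted p = 0.0331), although with the length and GC trend removed it was called lower there too (-0.60, adjusted p = 0.00263). It was the 1 member called higher at 10 µM than at 5 µM (0.68 ± 0.14, adjusted p = 0.0168). That call was lost with only the 2 groups fitted (adjusted p = 0.0894), on fold size with the length and GC trend removed, without 5 µM replicate 2 (adjusted p = 0.0789), without 5 µM replicate 3 (adjusted p = 0.0724) and, on fold size, without 10 µM replicate 1 (log2 fold change 0.58). The other three genes of this group were at the edge of detection: VTN (vitronectin), POSTN (periostin) and MATN2 (matrilin-2) had group means between 0.270 and 1.05 CPM. VTN, POSTN and MATN2 were not called by edgeR's quasi-likelihood test with all 9 libraries, and DESeq2 called MATN2 higher at 10 µM (log2 fold change 1.06, adjusted p = 0.0417). POSTN was called lower without 10 µM replicate 1 (log2 fold change -2.38, adjusted p = 0.0157), and lower than at 5 µM too (adjusted p = 0.0224).

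**Figure D3:**
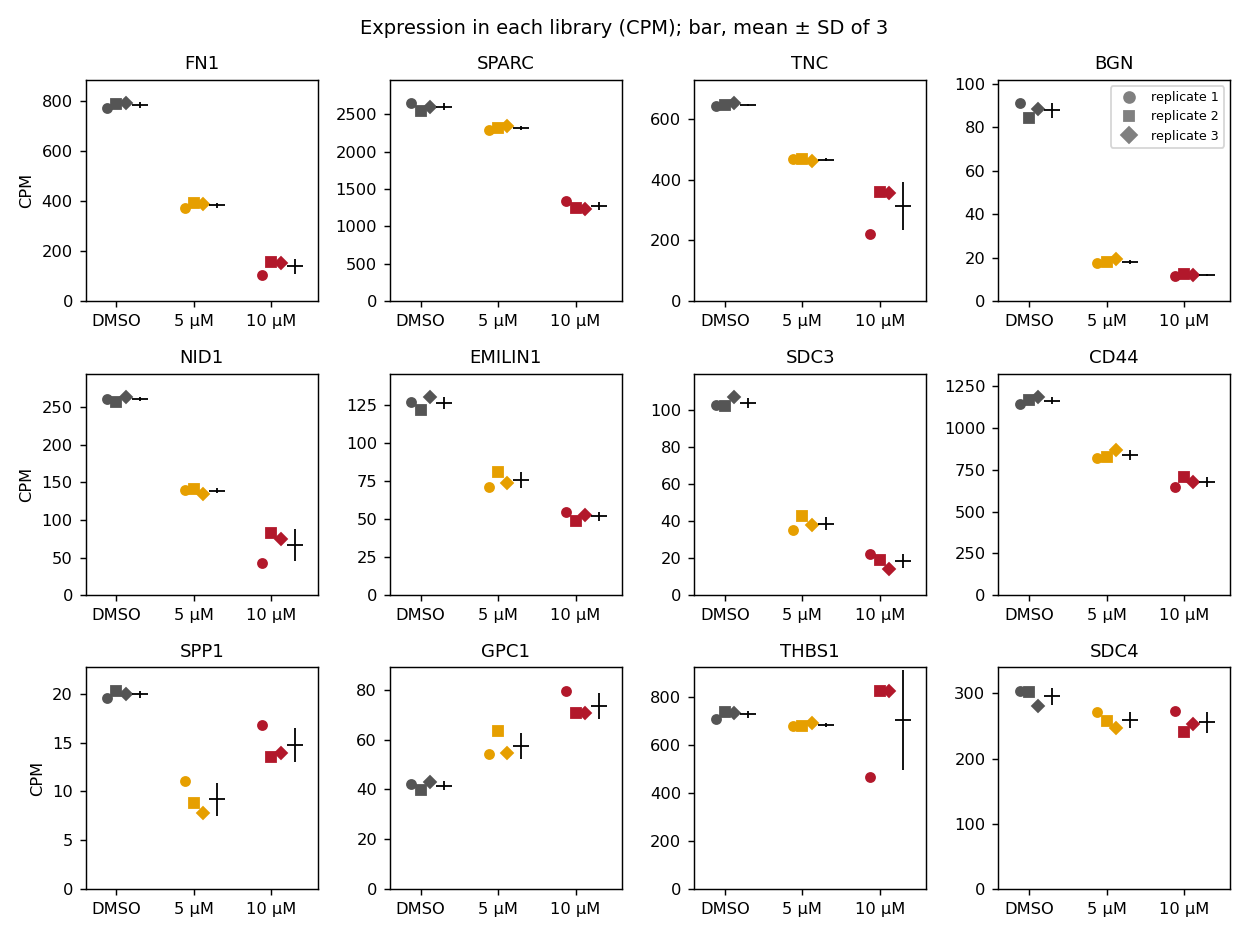
Level in CPM (vertical axis, from 0) of single matrix genes in each library, for 12 genes, with 1 marker shape per replicate in the DMSO, 5 µM and 10 µM TP-472 groups and a bar at the mean ± SD. FN1, BGN and SDC3 separate the 3 groups in falling order, GPC1 rises, and THBS1 shows 1 of 3 libraries at 10 µM below all others.

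Genes of elastic fibres and microfibrils, the extensible cables on which elastin is laid and latent TGF-beta is stored, fell in 4 of 11 tested cases at 5 µM and in 6 of 11 at 10 µM, with 0 called higher. Over all tested genes, 2.72% and 10.5% were lower and 2.14% and 8.57% higher at these doses. EMILIN1, a glycoprotein at the interface of elastin and microfibrils, was at 127, 122 and 130.2 CPM in the DMSO libraries, 71.2, 81.3 and 74.0 CPM under 5 µM and 54.5, 48.7 and 52.4 CPM under 10 µM. Every TP-472 library lay below every DMSO library, and the log2 fold changes were -0.74 ± 0.08, adjusted p = 0.000447, at 5 µM and -1.28 ± 0.08, adjusted p = 2.88e-06, at 10 µM. The dose difference (-0.54 ± 0.08) was below the fold limit and was called without 5 µM replicate 1 (adjusted p = 0.011). EFEMP2, the fibulin-4 gene needed for elastic fibre assembly, was at 28.3, 27.7 and 30.3 CPM in the DMSO libraries, 18.3, 17.2 and 15.9 CPM under 5 µM and 10.6, 9.25 and 10.4 CPM under 10 µM. It was called lower at 5 µM (-0.75 ± 0.09, adjusted p = 0.00101) and at 10 µM (-1.51 ± 0.10, adjusted p = 3.14e-06), and the doses differed (-0.77 ± 0.09, adjusted p = 0.00131). EFEMP1, the related fibulin-3 gene, was at 13.3, 13.5 and 14.3 CPM in the DMSO libraries, 8.85, 8.15 and 8.05 CPM under 5 µM and 8.88, 6.65 and 8.35 CPM under 10 µM. Its fall was called at 5 µM (-0.72 ± 0.13, adjusted p = 0.00625) and at 10 µM (-0.78 ± 0.13, adjusted p = 0.00111), and the 5 µM and 10 µM libraries overlapped, with a difference of -0.07 ± 0.13 (adjusted p = 0.778). FBLN1 (fibulin-1) averaged 4.73, 1.81 and 1.07 CPM by rising dose, with 184 to 253, 73 to 100 and 41 to 70 counts per library. It was called lower at 5 µM (-1.38 ± 0.26, adjusted p = 0.00854) and at 10 µM (-2.15 ± 0.27, adjusted p = 0.000237), the former not without DMSO replicate 2 (adjusted p = 0.0538). The doses were not called as different for FBLN1 (adjusted p = 0.108), except without 10 µM replicate 3 (adjusted p = 0.0412).

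The 4 genes of the LTBP family, which is named for the binding of latent TGF-beta, included 2 called lower at 10 µM. LTBP3 was the most abundant of them per kilobase, at 635, 630.0 and 655 CPM in the DMSO libraries, 496, 534 and 476 CPM under 5 µM and 351, 320.3 and 328 CPM under 10 µM. It was called at 10 µM (-0.94 ± 0.07, adjusted p = 8.14e-06), and at 5 µM its change (-0.35 ± 0.07, adjusted p = 0.0111) passed the adjusted p but not the fold limit. The 10 µM value of LTBP3 ranged from -0.98 to -0.61 over 22 alternatives and stayed called. The dose difference of LTBP3 sat at the fold limit (-0.59 ± 0.07, adjusted p = 0.000974) and was lost under 11 of 22 alternatives, among them DESeq2, both other scaling factors, the fit of only the 2 groups, removal of the length and GC trend and omission of replicate 2 of 5 µM or of replicate 2 or 3 of 10 µM. LTBP2 was at 35.5, 36.0 and 37.8 CPM in the DMSO libraries, 25.8, 25.1 and 27.6 CPM under 5 µM and 8.10, 18.2 and 18.6 CPM under 10 µM, and 10 µM replicate 1 was again far below the other two. It was lower at 10 µM (-1.28 ± 0.25, adjusted p = 0.00318, and -0.99 without that replicate), and its dose difference (-0.81 ± 0.25, adjusted p = 0.0763) was called under 4 alternatives, DESeq2 (adjusted p = 0.0174) among them. LTBP4, at 103 CPM in DMSO and 77.9 CPM at 10 µM, and LTBP1, at 8.04 and 5.75 CPM, had adjusted p-values of 0.00469 and 0.0117 at 10 µM, with log2 fold changes of -0.40 and -0.48 that fell short of the fold limit. Over the alternatives, these ranged from -0.43 to -0.06 for LTBP4 and from -0.53 to -0.31 for LTBP1. LTBP3 and EFEMP2 lie 308 kb apart on chromosome 11.

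FBN1, the main microfibril protein fibrillin-1, was not called with all 9 libraries. Its level was 84.7, 88.3 and 90.0 CPM in the DMSO libraries, 96.3, 92.7 and 95.4 CPM under 5 µM and 34.6, 71.2 and 85.3 CPM under 10 µM, so 2 of the 10 µM libraries were near DMSO and replicate 1 was far lower. The log2 fold change at 10 µM was -0.46 ± 0.25, adjusted p = 0.183, and -0.17 without replicate 1, and it was called lower without replicate 3 (adjusted p = 0.0429). FBN2 and FBLN5 averaged 0.434 and 0.647 CPM in DMSO and were not called, though FBLN5 was called higher at 10 µM without replicate 1 (log2 fold change 1.11, adjusted p = 0.0494). ELN, which encodes elastin itself, and FBLN2 did not pass the filter, with group means of at most 0.152 and 0.120 CPM.

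Of the 4 basement membrane genes, 1 was called lower at 5 µM and 2 at 10 µM, against 2.72% and 10.5% of all tested genes. NID1 encodes nidogen-1, which links the laminin and collagen IV networks. It was at 261, 257 and 263 CPM in the DMSO libraries, 140.2, 141 and 135 CPM under 5 µM and 42.8, 82.7 and 74.1 CPM under 10 µM, with no overlap between groups. The fall at 10 µM was -1.97 ± 0.20, adjusted p = 5.81e-05, and -1.73 without replicate 1, and the dose difference was called (-1.06 ± 0.19, adjusted p = 0.00926), but not with only the 2 groups fitted (adjusted p = 0.062). At 5 µM the change (-0.91 ± 0.19, adjusted p = 0.0144) lost its call when any 1 of the 6 DMSO and 5 µM libraries was left out, with adjusted p-values of 0.0554 to 0.0682. Its paralog NID2 was at 10.0, 10.3 and 8.91 CPM in the DMSO libraries, 9.46, 11.0 and 11.8 CPM under 5 µM and 12.5, 11.3 and 9.07 CPM under 10 µM and was not called at either dose (0.17 ± 0.14, adjusted p = 0.398, at 10 µM), although 30.0% of its exons overlap the gene RTRAF. HSPG2 encodes perlecan, a large heparan sulfate proteoglycan, and was at 239, 252 and 247 CPM in the DMSO libraries, 221, 226 and 211 CPM under 5 µM and 69.2, 151 and 162 CPM under 10 µM. It was called lower at 10 µM (-0.95 ± 0.25, adjusted p = 0.0143), and replicate 1 held less than the other two 10 µM libraries. Without that library the change was -0.65. The overlapping gene LDLRAD2 had 429.5 counts in that library and 2.03 to 40.8 in the other 8, and its part in the HSPG2 value was not tested. HSPG2 was called lower at 10 µM than at 5 µM without 10 µM replicate 3 (adjusted p = 0.0498), and with all libraries by DESeq2 (adjusted p = 0.0156) and the likelihood ratio test (adjusted p = 0.0204), but not by the quasi-likelihood test (adjusted p = 0.0824). AGRN, the heparan sulfate proteoglycan agrin, was at 595, 593 and 585 CPM in the DMSO libraries, 648, 688 and 622 CPM under 5 µM and 400.0, 498 and 514 CPM under 10 µM, and its change at 10 µM (-0.33 ± 0.09, adjusted p = 0.0221, or -0.23 without replicate 1) was within the fold limit. Over the 22 alternatives run, that AGRN value ranged from -0.40 to 0.08, so its direction did not hold under all of them.

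The 4 secreted proteoglycans, VCAN, BGN, DCN and LUM, included the gene with the lowest fold change of the 39 at both doses. BGN encodes biglycan, a small leucine-rich proteoglycan that binds collagen and TGF-beta, and lies on chromosome X. DMSO libraries held 91.1, 84.2 and 88.7 CPM and 5 µM libraries 17.5, 18.1 and 19.3 CPM, most of the way to the 11.7, 12.4 and 11.9 CPM seen at 10 µM. The log2 fold changes were -2.26 ± 0.08, adjusted p = 1.08e-06, and -2.88 ± 0.08, adjusted p = 3.87e-08, which correspond to 4.80-fold and 7.34-fold lower levels. Rank by length-scaled level fell from place 10 in DMSO to place 17 at 5 µM. The further step between doses was at the fold limit (-0.61 ± 0.08, adjusted p = 0.00141) and was lost on fold size without 5 µM replicate 3 and with upper-quartile factors. VCAN, the large chondroitin sulfate proteoglycan versican, which binds hyaluronan, was called at the higher dose alone. It was at 70.0, 75.9 and 68.7 CPM in the DMSO libraries, 80.2, 68.4 and 80.3 CPM under 5 µM and 17.4, 38.3 and 41.7 CPM under 10 µM, so that 5 µM overlapped DMSO (0.09 ± 0.25, adjusted p = 0.880) and all 10 µM libraries lay below both. VCAN was called lower at 10 µM (-1.14 ± 0.26, adjusted p = 0.00703, and -0.84 without replicate 1). The dose difference (-1.23 ± 0.26, adjusted p = 0.0181) was lost without any 1 of the 5 µM libraries (adjusted p = 0.053 to 0.0717) and with only the 2 groups fitted (adjusted p = 0.0886). LUM (lumican) was low, at 2.56, 2.18 and 2.51 CPM in the DMSO libraries, 3.37, 3.93 and 3.82 CPM under 5 µM and 2.09, 2.54 and 2.20 CPM under 10 µM, and its 5 µM libraries were the highest. LUM was called lower at 10 µM than at 5 µM (-0.70 ± 0.19, adjusted p = 0.0459), a call lost under 13 of 22 alternatives. Among these were omission of any 1 of the DMSO or 5 µM libraries or of 10 µM replicate 3 (adjusted p = 0.0770 to 0.144). The replicate block (adjusted p = 0.0925) and the fit of only the 2 groups (adjusted p = 0.180) lost it too. LUM was called higher at 5 µM than in DMSO without 10 µM replicate 1 (adjusted p = 0.0225), by DESeq2 (adjusted p = 0.0144) and under 3 other alternatives. DCN (decorin), next to LUM on chromosome 12 at 28.7 kb, averaged 0.661, 0.776 and 0.673 CPM and was not called.

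The 9 cell-surface genes held calls in both directions: of the 8 tested, 1 was called lower at 5 µM, and 2 lower and 1 higher at 10 µM. Over all tested genes, 2.72% were lower at 5 µM, and 10.5% were lower and 8.57% higher at 10 µM. SDC3, a heparan sulfate proteoglycan of the syndecan family, was at 102, 102 and 107 CPM in the DMSO libraries, 35.3, 42.7 and 37.9 CPM under 5 µM and 22.0, 19.1 and 14.2 CPM under 10 µM. Every TP-472 library lay below every DMSO library, the log2 fold changes were -1.43 ± 0.14, adjusted p = 0.000304, for 5 µM and -2.49 ± 0.15, adjusted p = 2.01e-06, for 10 µM, and the doses differed (-1.07 ± 0.14, adjusted p = 0.00207). The other syndecans were not called. SDC1 averaged 78.1 ± 0.527 CPM in DMSO, 91.6 ± 4.78 at 5 µM and 88.9 ± 6.76 at 10 µM (SD, n = 3), and SDC2 27.6, 31.2 and 30.7 CPM. SDC4, the most abundant syndecan per kilobase and a partner of integrins at focal adhesions, was at 303, 302 and 280.3 CPM in the DMSO libraries, 271, 258 and 246 CPM under 5 µM and 272, 241 and 253 CPM under 10 µM, and its 10 µM value was -0.21 ± 0.07, adjusted p = 0.0514. GPC1, a heparan sulfate proteoglycan of the glypican family, which is held on the membrane by a lipid anchor, went the other way. It was at 42, 39.7 and 42.9 CPM in the DMSO libraries, 54.4, 63.5 and 54.8 CPM under 5 µM and 79.5, 70.7 and 70.6 CPM under 10 µM, and the 3 groups did not overlap. The rise was called at 10 µM (0.83 ± 0.09, adjusted p = 9.64e-05, and 0.76 without replicate 1), while at 5 µM (0.47 ± 0.09, adjusted p = 0.00901) it stayed under the fold limit. GPC6 averaged 46.7, 51.8 and 40.2 CPM and GPC4 1.74, 1.75 and 1.34 CPM, and neither was called, the 10 µM change of GPC6 being -0.22 with all libraries and -0.05 without replicate 1. GPC3 was at 0 counts in all DMSO and 10 µM libraries, which allows up to 3 counts or 0.0577 to 0.0709 CPM per library by counting error alone, and averaged 0.0403 CPM at 5 µM.

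CD44 is the main cell-surface receptor for hyaluronan and stood below SPARC per kilobase of merged exons in DMSO, with a range that overlapped SDC4 on that length. Its level was 1142, 1167 and 1185 CPM in the DMSO libraries, 819.9, 825 and 872 CPM under 5 µM and 646, 708 and 679 CPM under 10 µM, in 3 separated groups with means of 1165 ± 21.4, 839 ± 28.4 and 677 ± 30.9 CPM (SD, n = 3). CD44 was called lower at 10 µM (-0.78 ± 0.06, adjusted p = 1.32e-05), and its 5 µM change (-0.47 ± 0.06, adjusted p = 0.00133) passed the adjusted p but not the fold limit. The difference between doses was -0.31 ± 0.06, adjusted p = 0.0157, also under the fold limit.

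Paralogs with like functions were set against each other within each library, in pairs chosen after their values were seen. They are therefore given as a description, with no test. The log2 ratio of SDC3 to SDC4 averaged -1.51 in DMSO, -2.75 at 5 µM and -3.82 at 10 µM, and each TP-472 library lay below all DMSO libraries. NID1 over NID2 went from 4.74 to 3.70 and 2.56, and LTBP3 over LTBP4 from 2.64 to 2.47 and 2.097, likewise without overlap with DMSO. For LTBP3 over LTBP4 the separation at 5 µM was slight, with 5 µM replicate 2 at 2.590 and DMSO replicate 2 at 2.599. RTRAF (C14orf166 in the count table), which overlaps NID2, had 5269 counts in 10 µM replicate 1 and 2766 to 3933 in the other libraries. That replicate had the lowest NID1 to NID2 ratio (1.77), and the part of RTRAF reads in it was not tested. THBS3 over THBS1 averaged -3.87 in DMSO and -4.44 at 10 µM, and here the groups overlapped, with 10 µM replicate 1 at -3.83 and the other two at -4.72 and -4.78. The change from DMSO in the syndecan ratio was -1.24 at 5 µM and -2.31 at 10 µM.

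**Figure D4:**
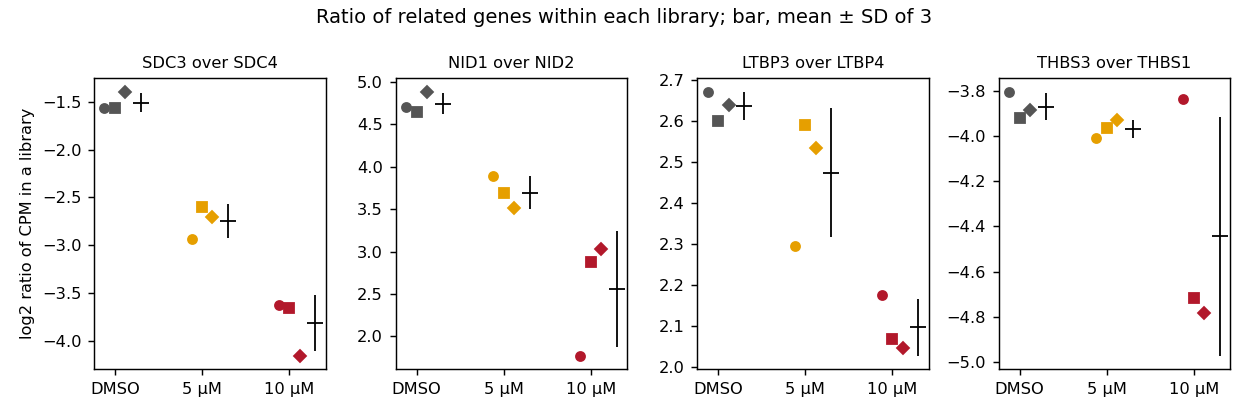
Log2 ratio of the CPM of 2 paralogs (vertical axis) in each library of DMSO, 5 µM and 10 µM TP-472. The mean ratios of SDC3 to SDC4, NID1 to NID2 and LTBP3 to LTBP4 fall with dose and their libraries do not overlap DMSO. LTBP3 to LTBP4 is only just separate at 5 µM (highest 2.590, against a lowest of 2.599 in DMSO). THBS3 to THBS1 overlaps at 10 µM through replicate 1, at -3.83.

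The sugar chains of proteoglycans are built by enzymes of the Golgi, and the hyaluronan chains that CD44 and versican bind are made at the cell surface. Of 46 tested genes of glycosaminoglycan synthesis and sulfation, 3 were called lower and 0 higher at 5 µM and 10 lower and 1 higher at 10 µM, with a median log2 fold change of -0.23 at 10 µM. For these lists too the background over all tested genes was 2.72% lower and 2.14% higher at 5 µM, and 10.5% and 8.57% at 10 µM. The 4 with the smallest p at 10 µM all fell: CHST11, a chondroitin 4-sulfotransferase (mean 117 CPM in DMSO, 80.5 at 5 µM and 49.0 at 10 µM, -1.25 ± 0.07, adjusted p = 1.48e-06), HS3ST3A1, a heparan sulfate sulfotransferase (-1.09), and CHSY1 (-0.67) and CSGALNACT1 (-1.38), which take part in chondroitin chain synthesis. Of 14 tested genes of hyaluronan synthesis, turnover and binding, 2 were called lower at 5 µM and 6 at 10 µM. Their median log2 fold change was -0.86 at 10 µM. The 1 gene called higher at each dose was TMEM2, at 278, 465 and 505 CPM by rising dose (0.74 and 0.86 against DMSO). The list mixes these roles, so its counts do not measure hyaluronan supply. HAPLN1, which links versican-type proteoglycans to hyaluronan, averaged 30.5, 15.4 and 6.29 CPM by dose (-2.27 ± 0.12, adjusted p = 1.29e-06, at 10 µM). HAS2, a hyaluronan synthase, averaged 15.3, 10.6 and 3.70 CPM (-2.04 ± 0.11, adjusted p = 1.29e-06, at 10 µM). HMMR, a hyaluronan-binding protein that also acts on the mitotic spindle, and HAPLN3 fell too (-1.40 and -1.20). Of 53 tested other matrix glycoproteins and proteoglycans, 6 were lower and 3 higher at 5 µM and 14 lower and 6 higher at 10 µM. TGFBI, an integrin-binding protein induced by TGF-beta, went from 546 to 272 and 125 CPM and AEBP1, a collagen-binding protein, from 197 to 134 and 95.6 CPM (-2.13 and -1.05 at 10 µM). The CCN matricellular genes CTGF and CYR61 rose, from 35.3 and 78.2 CPM (DMSO) to 130.3 and 221 CPM at 10 µM (1.88 and 1.495).

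The library of 10 µM replicate 1 deviated from the other two of its group along with transcript length. Over the 29 genes with at least 5 CPM in a group, the log2 ratio of that library to the mean of the other two ran from -1.20 to 0.40, and 9 genes lay below -0.5: FN1, TNC, THBS1, FBN1, LTBP2, NID1, HSPG2, VCAN and GPC6. The longest transcripts of these 9 had a median of 8567 bases (5864 to 14327), against 3851 bases (1664 to 13831) for the other 20. The rank correlation of the ratio with transcript length across the 29 genes was -0.68 at 10 µM, -0.52 in DMSO, where the ratios spanned only -0.24 to 0.08, and -0.12 at 5 µM, with genes of 1 library sharing its depth and not being independent replicates. SPARC, BGN, SDC3, EMILIN1, EFEMP2, LTBP3, CD44 and GPC1 lay between -0.10 and 0.40 in this measure at 10 µM. Without replicate 1, the counts were 19 lower and 2 higher at 10 µM, 9 lower and 1 higher at 5 µM, and 11 lower and 0 higher between doses, and all 18 genes called lower at 10 µM were still called. Over all tested genes the shares, in the same order, were 11%, 8.17%, 3.98%, 3.43%, 3.27% and 1.91%. With a length and GC trend removed over all libraries, TNXB (-0.53) and THBS2 (-0.53) were no longer called lower at 10 µM. SPP1 (-0.60) was called lower there, and the other genes called lower at 10 µM stayed called. Beyond these values, the role of this library's length pattern in the fold changes of long genes was not tested.

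**Figure D5:**
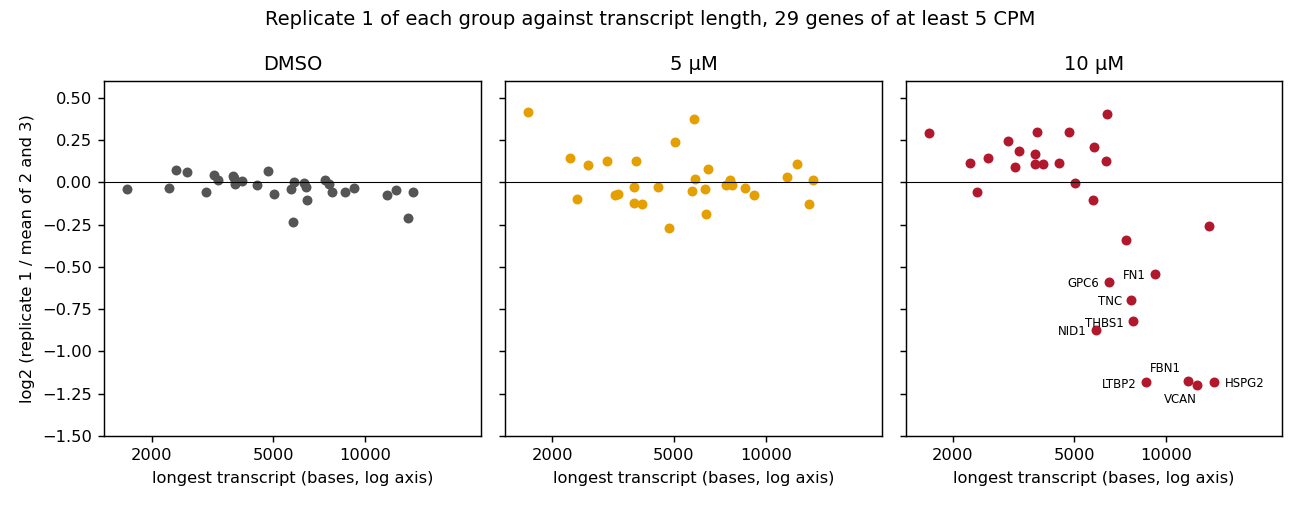
Log2 ratio of replicate 1 to the mean of replicates 2 and 3 of its group (vertical axis) against the longest transcript in bases (log axis) for 29 matrix genes, 1 panel per group. At 10 µM, 9 long genes lie below -0.5, down to -1.20, while DMSO ratios stay between -0.24 and 0.08.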

How the data were processed

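The authors deposited 1 table of RSEM expected counts per gene symbol, not scaled to library size. The submitters' processing notes name hg38, Bowtie2 2.1.0 and RSEM 1.2.15, while no source used here gives the annotation or the strand setting of the counting. The sample protocol describes oligo-dT selection with strand-specific libraries, whereas the series design text describes depletion of ribosomal RNA with random priming, and which was used could not be settled. A share of 10.6% to 13.8% of each library's values was not whole (tolerance 1e-06), and all were rounded.

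All 9 libraries were fitted together in edgeR 4.0.16 (R 4.3.3) with TMM factors (0.957 to 1.029), filterByExpr at a minimum count of 10 (16417 genes left) and edgeR's quasi-likelihood test, and p-values were adjusted by Benjamini-Hochberg over all genes tested. The SE was taken from each log2 fold change and its F statistic (the change over the root of F). The pipeline was run on simulated counts with 200 genes changed well beyond the fold limit. That run held no deviating library, so it does not speak for calls near the limit or for the effect of 10 µM replicate 1. The members, the role groups and the pathway lists were chosen with earlier results of these data known. Full statistics are given for members called in at least 1 comparison with a mean of at least 5 CPM in a group, and other members and the 4 genes with the smallest p of each pathway list are given more briefly. TMEM2 is named in addition, as the hyaluronan gene called higher. A few further members are described because their call changed when a library was left out, and were chosen after their values were seen. Lengths, overlaps and the FN1 position were read from GENCODE 29 (GRCh38), in which were found 23899 of 26475 symbols and all 42 members. Promoters are from RefSeq.

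Alternatives were DESeq2 1.42.0, limma-voom (limma 3.58.1), the edgeR likelihood ratio test, other scaling factors, filters and thresholds, fits of only the groups compared, a block for the replicate number, omission of single libraries and, added after seeing the data, removal of a length and GC trend (splines of 4 degrees of freedom) and of ribosomal RNA genes. Tables were made with Python 3.11.15, pandas 2.3.3 and scipy 1.17.1. The depth of 42483091 to 51298130 counts per library limits genes under 1 CPM to few counts, and floors cover counting error only. A leukocyte marker is not reported here.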

Additional observations from a re-analysis of the deposited data

How the results depend on the processing

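The counts of members called lower at 10 µM (18) stayed within 1.5 times under every alternative run, from 13 with a test against a fold change of 1.5 to 22 with the adjusted p alone, and 17 to 19 with 1 library left out. Over all tested genes, the share lower at 10 µM was 4.2% with that test and 18% with the adjusted p alone. It was 8.72% to 11.2% with 1 library left out. The test against a fold change of 1.5 left 3 members lower at 5 µM, 2 lower and 0 higher between doses, against 0.408%, 0.268% and 0.158% of all tested genes. With the adjusted p alone, 15 were lower and 2 higher between doses and 1 was higher at 5 µM, against 5.53%, 2.87% and 4.4%. Fitting only the 2 groups compared gave 5 lower and 0 higher between doses and 1 higher at 5 µM, against 1.03%, 0.631% and 3.73%. With upper-quartile factors 6 were lower between doses, against 2.21%. DESeq2 gave 2 higher at 10 µM (GPC1 and MATN2) and 1 higher at 5 µM, the likelihood ratio test 1 higher at 5 µM, and removal of the length and GC trend 1 higher at 5 µM and 0 higher between doses. Over all tested genes these shares were 9.73% and 3.02% by DESeq2 and 2.94% by the likelihood ratio test. With the trend removed they were 2.68% and 1.92%. Leaving out 1 library gave 7 to 9 lower and 0 to 1 higher at 5 µM, 1 to 2 higher at 10 µM, and 6 to 11 lower and 0 to 1 higher between doses. The 6 came without 5 µM replicate 2 or replicate 3, and the cause was not tested. Over all tested genes the shares were 1.68% to 3.98% lower and 1.17% to 3.43% higher at 5 µM. They were 6.22% to 9.34% higher at 10 µM, and 1.53% to 3.42% lower and 0.701% to 1.91% higher between doses. Same-numbered libraries did not deviate together (correlations of -0.0493 to 0.0322). Such values cannot show whether samples were handled in numbered sets, and the labels do not say, so pairing is unknown. With the replicate block, 9 members were lower and 0 higher at 5 µM, 18 lower and 1 higher at 10 µM, and 8 lower and 1 higher between doses, with LUM losing its call. The shares over all tested genes with the block, in the same order, were 2.43%, 1.75%, 10.6%, 7.73%, 2.31% and 1.07%. Over single members and alternatives, no called value changed direction, and 831, 831 and 788 values kept their side of the threshold at 5 µM, at 10 µM and between doses, 8, 13 and 22 gained a call and 13, 8 and 42 lost it. Depth limits the 9 members under 1 CPM in DMSO, of which ELN, FBLN2 and GPC3 could not be tested.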
